A study of Mus musculus with 12 samples.

Results

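miR-221 and miR-222 are a pair of neighbouring miRNAs that are known to target Kit, the receptor for stem cell factor. They were followed here through mouse granulopoiesis in whole cell, cytoplasmic and nuclear RNA. Both were found by name: of the 593 numbered assays in the deposited table, 270 could be named from values the study prints beside miRNA names, and 2 of these are miR-221 and miR-222. miR-222 was matched through its cytoplasmic and nuclear CT values and also through its whole cell differences between stages. miR-221 was matched through its whole cell differences alone, where the next nearest assay was off by 0.220 cycles.

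The samples came from bone marrow of C57BL/6 mice, sorted by flow cytometry into 4 stages of maturation. These were LSK cells, the Lin- Sca1+ cKit+ fraction that holds the stem cells, and then promyelocytes, myelocytes and granulocytes in turn. From each stage, 1 sample of whole cell RNA, 1 of cytoplasmic RNA and 1 of nuclear RNA was measured on TaqMan rodent miRNA array cards, 12 samples in all, from 100 ng of RNA each. The animals carried no stated treatment or altered allele, and neither their age nor the number pooled is given in the sources used here. LSK cells were selected for surface cKit, and an anti-cKit antibody was also part of the stain for the later stages, so the protein encoded by Kit entered the sorting itself. Kit mRNA and protein were not analysed here.

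A miRNA pairs with sites in messenger RNAs mainly through its seed, bases 2 to 8 from the 5′ end, and lowers translation or stability of the message. miR-221 and miR-222 share a seed and are known to repress Kit in hemopoietic progenitors, most fully described in red cell formation, as well as the cell cycle inhibitor Cdkn1b. Kit itself is a receptor tyrosine kinase that is abundant on stem and progenitor cells and is lost as granulocytes mature.

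The mature sequences of the pair are shown first because they share the end that selects targets. They are the RefSeq entries on GRCm38.p6 for the 3p arms, the arms that the names without an arm stand for, and capitals mark the seed. The third line is the only other mature mouse miRNA in the RefSeq table of 1738 sequences that carries this seed.
mmu-miR-221-3p: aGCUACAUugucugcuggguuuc
mmu-miR-222-3p: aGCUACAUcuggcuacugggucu
mmu-miR-1928: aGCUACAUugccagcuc
miR-221-3p lies at chrX:19146307-19146329 and miR-222-3p at chrX:19146901-19146923, both on the minus strand. Each lies in the hairpin of its own miRNA gene, and the hairpins are 504 bases apart. No other annotated gene, whether exon or intron, overlaps the span of the hairpins (0 genes), so the pair is intergenic in this annotation. Both are 23 bases long. They have the same first 8 bases, and, set base against base without gaps, 3 of the 15 positions after these hold the same base. miR-1928 lies at chr1:74206562-74206578 on the minus strand and was not among the named assays.

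A CT is the cycle at which the PCR product of an assay crosses a fixed threshold. More template thus gives a lower CT, and 1 cycle is a 2-fold difference where each cycle doubles the product. Undetermined wells are listed at 40, and between 199 and 294 of the 593 assays were under 40 in a sample. Each value is a single CT of 1 sample, so there is no replicate check, no test was made, and the error of a CT is unknown. A change was called where it reached 2-fold, a log2 change of at least 1, in an assay with a CT under 30 in 1 or both of the stages compared. The stage labels were set against 6 marker miRNAs, chosen with earlier results of these data known, of which 4 were named. Whole cell miR-223, a miRNA of granulocytes, went from a CT of 24.0 in LSK cells to 16.4 in granulocytes. The CT of miR-126-3p, a miRNA of stem and progenitor cells, went from 24.3 to 27.0, and that of miR-125b-5p, of the same cells, from 28.9 to 32.05. miR-150, a lymphocyte miRNA, had a CT of 25.1 in LSK cells, 28.8 in promyelocytes and 25.6 and 25.8 in the later stages, so that it was lowest in promyelocytes, where its log2 change against LSK cells was -3.90, and granulocytes were higher than promyelocytes by 2.51.

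miR-222 was an abundant miRNA at every stage and was highest in LSK cells in all 3 RNA fractions. Its whole cell CT was 22.7 in LSK cells and 24.3, 25.0 and 24.8 at the promyelocyte, myelocyte and granulocyte stages. In cytoplasmic RNA its CT was 21.8, 24.4, 25.0 and 24.8 in the same order. In nuclear RNA its CT was 26.1, 27.5, 28.3 and 27.5. The LSK sample was the lowest in CT and the myelocyte sample the highest in each fraction. Among the named assays detected in whole cell RNA, miR-222 stood at rank 5 of 202 from the lowest CT in LSK cells, and at rank 29 of 220 in granulocytes. Ranks compare CT values of assays that each have an efficiency of their own, and are a description only.

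miR-221 gave higher CT values than miR-222 in every sample and followed another course. Its whole cell CT was 29.0 in LSK cells and 27.1, 27.98 and 27.6 at the later stages in turn. In cytoplasmic RNA its CT was 26.9, 27.4, 27.9 and 27.5. In nuclear RNA its CT was 32.2, 31.4, 31.8 and 30.1, above 30 in all 4 stages, where the study's own limit for high expression lies. The LSK sample was therefore the highest in CT in whole cell and nuclear RNA and the lowest in cytoplasmic RNA. The 4 cytoplasmic values of miR-221 spanned 1.01 cycles, against 3.23 cycles for miR-222.

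**Figure D1:**
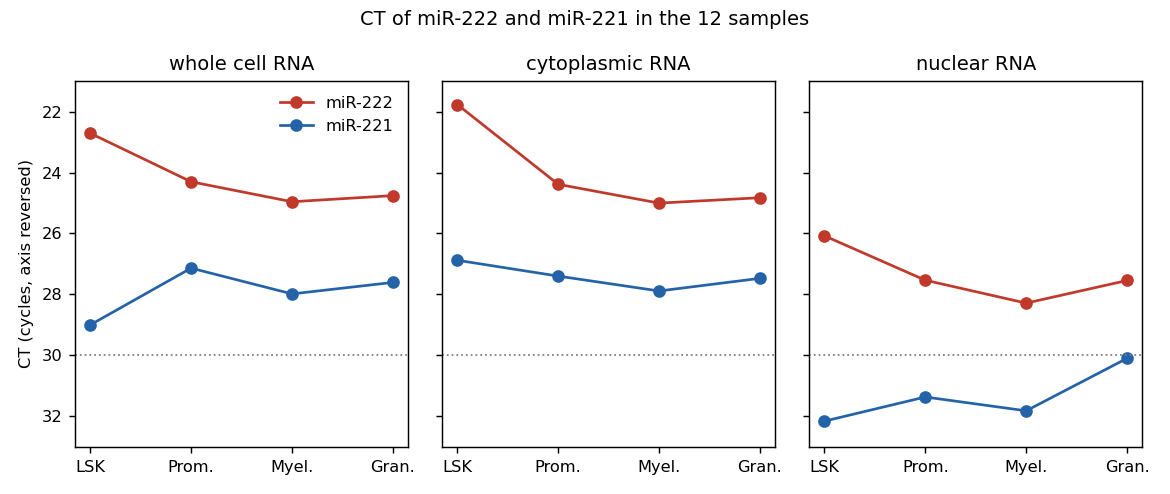
CT of miR-222 (red) and miR-221 (blue) by stage (Prom., promyelocytes; Myel., myelocytes; Gran., granulocytes), with a panel for each RNA fraction and 1 sample a point; the axis is reversed so that more RNA lies higher, and the dotted line is a CT of 30. miR-222 is highest in LSK cells in each panel, and nuclear miR-221 lies beyond a CT of 30 throughout.

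From LSK cells to promyelocytes, the first step of the series, whole cell miR-222 was lower and whole cell miR-221 higher. The log2 change, scaled to the last 3 assays of card B, was -1.84 for miR-222, 3.58-fold lower in promyelocytes. It was 1.61 for miR-221, 3.06-fold higher in promyelocytes. Both passed 2-fold, in opposite directions. Of the 104 named assays in this comparison, 17.3% were past 2-fold lower and 33.7% past 2-fold higher, with a median log2 change of 0.43. Of the other named assays, 11 had a more negative change than miR-222, while 19 had a more positive change than miR-221. The sign of both changes was the same under every scaling tried and at 1.9-fold per cycle, from -2.17 to -1.49 for miR-222 and from 1.28 to 1.96 for miR-221.

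After the promyelocyte stage the pair ran side by side in whole cell RNA. From promyelocytes to granulocytes the log2 change was -0.88 for miR-222 and -0.90 for miR-221, neither past 2-fold, where 21.1% of 123 named assays were past 2-fold lower and the median was 1.06. From promyelocytes to myelocytes the changes were -0.64 and -0.83 (-1.16 and -1.35 with the mean CT of the named assays), and from myelocytes to granulocytes -0.24 and -0.06. The calls from promyelocytes to granulocytes depend on the scaling too: with the mean CT of the named assays in place of the 3 assays, the changes were -1.38 and -1.40, past 2-fold.

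In myelocytes against LSK cells, whole cell miR-222 had a log2 change of -2.48 and miR-221 of 0.78, where 15% of 113 named assays were past 2-fold lower. For miR-221 this was 1.02 without scaling and turned to -0.071 and -0.26 with the mean CT of the named assays and with those of card A alone. Over the whole course, miR-222 was 6.60-fold lower in granulocytes than in LSK cells, a log2 change of -2.72. The size depends on the scaling: the change was -2.05 without any, -3.56 with the mean CT of the named assays and -3.76 with those of card A alone. Among 124 named assays 16.1% were past 2-fold lower and 55.6% past 2-fold higher, with a median of 1.31, and 10 had a more negative change than miR-222. miR-221 had a log2 change of 0.72 and was not past 2-fold. Its direction turned with the scaling, to -0.12 with the mean CT of the named assays and -0.33 with those of card A alone.

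The difference between the changes of the pair needs no scaling, since any constant of a sample cancels. From LSK cells to promyelocytes, miR-221 had a log2 change that was higher than that of miR-222 by 3.45 in whole cell, 2.10 in cytoplasmic and 2.25 in nuclear RNA. From promyelocytes to granulocytes the difference was -0.01 in whole cell, 0.37 in cytoplasmic and 1.28 in nuclear RNA. In CT, miR-221 lay 6.29 cycles above miR-222 in LSK whole cell RNA and 2.83, 3.02 and 2.85 cycles above it in the next 3 stages. The cytoplasmic gaps were 5.11 cycles in LSK cells and 3.01, 2.88 and 2.64 thereafter. The nuclear gaps were 6.08 cycles in LSK cells and 3.83, 3.53 and 2.55 thereafter. In all 3 fractions the gap was widest in LSK cells, with 1 LSK value in each. How often other pairs of assays are widest there was not counted. The nuclear gaps and differences rest on miR-221 CT values above 30. The 3 fractions are separate RNA samples, but whether they came from the same sorted cells is not given in the sources used here.

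**Figure D2:**
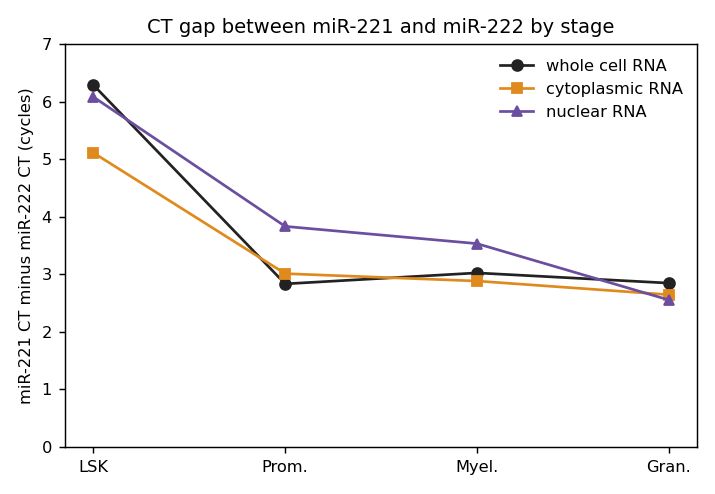
CT of miR-221 minus CT of miR-222 (cycles) by stage in whole cell, cytoplasmic and nuclear RNA, 1 difference a point. The LSK values lie between 5.11 and 6.29 cycles and the later ones between 2.55 and 3.83.

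Other miRNA genes that lie within 10 kb of each other give a scale for this difference. After the values of the pair had been seen, 12 other neighbouring pairs with both assays named and detected were collected, some of which share a miRNA. Both assays had to be under 40 in all whole cell samples and under 30 in 1 or more. Star strands and miRNAs whose name does not match a single gene were left out, so these are not all neighbouring pairs. From LSK cells to promyelocytes their log2 changes differed by a median of 0.67 in whole cell RNA, and 1 of the 12 pairs differed by more than the 3.45 of miR-221 and miR-222. That pair was miR-125a-5p and let-7e, at 6.29, where miR-125a-5p was at a CT above 34 in promyelocytes. In cytoplasmic RNA 1 of 12 pairs differed by more than miR-221 and miR-222, and in nuclear RNA 0 of 10. From LSK cells to granulocytes 1 of 12 pairs did so in whole cell RNA, 2 of 12 in cytoplasmic RNA and 0 of 10 in nuclear RNA. From promyelocytes to granulocytes 11 of the 12 pairs differed by more than this pair did in whole cell RNA and 9 of 12 in cytoplasmic RNA. In nuclear RNA 0 of 10 did, where miR-221 and miR-222 differed by 1.28 and the highest of the others by 1.19. Nuclear pairs were kept where both assays were under 40 at every stage. The nuclear values of miR-221 were at CT values above 30, where no call was made.

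In cytoplasmic RNA, taken without scaling, miR-222 was 6.14-fold lower in promyelocytes, 9.41-fold lower in myelocytes and 8.32-fold lower in granulocytes than in LSK cells. These are log2 changes of -2.62, -3.23 and -3.06. The first comparison held 64.0% of 111 named assays past 2-fold lower, with a median of -1.26, so the call itself was a common one there. In myelocytes 33.3% of 123 named assays were past 2-fold lower, with a median of -0.28. In granulocytes 34.7% of 124 were, with a median of -0.23, and 16 had a more negative change than miR-222. Scaled to the last 3 assays of card B, the promyelocyte change was -0.77 and no longer past 2-fold, and the granulocyte change was -4.47. Those 3 assays are unnamed and had a lower CT in nuclear than in cytoplasmic RNA at every stage. Their mean cytoplasmic level had a log2 change of -1.85 from LSK cells to promyelocytes and of 3.27 from promyelocytes to granulocytes. The reason for these shifts was not tested. miR-221 had cytoplasmic changes of -0.52, -1.01 and -0.59 against LSK cells, past 2-fold in myelocytes alone. These calls moved once scaled: against the 3 assays that end card B the changes were 1.33, -0.83 and -2.01, past 2-fold higher in promyelocytes and past 2-fold lower in granulocytes. With the mean CT of the named assays they were 0.65, -0.89 and -0.53, none past 2-fold. From promyelocytes to granulocytes, cytoplasmic miR-222 had a change of -0.44 and miR-221 of -0.07 as measured. Scaled to the 3 assays that end card B these were -3.70 and -3.34, and with the mean CT of the named assays -1.54 and -1.18.

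Nuclear miR-222 was also lower after the LSK stage, with log2 changes against LSK cells of -1.46, -2.21 and -1.47 at the promyelocyte, myelocyte and granulocyte stages. The share of named assays past 2-fold lower was 29.4% of 51, 26.0% of 50 and 14.3% of 63 in the same order. Against LSK cells, 6 of those 63 had a more negative change in granulocytes than miR-222, and the median was 1.59. Scaled to the 3 assays that end card B, the myelocyte change was -1.04 and the granulocyte change -0.31, not past 2-fold. With the mean CT of the named assays the granulocyte change was -2.73. From promyelocytes to granulocytes nuclear miR-222 had a change of -0.01, which was 1.38 with the 3 assays that end card B and -1.09 with the mean CT of the named assays. Nuclear miR-221 gave changes of 0.79, 0.34 and 2.06 against LSK cells, but from CT values above 30, so that no call was made.

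The whole cell and cytoplasmic samples of LSK cells stood apart from those of the later stages. The whole cell CT lay above the cytoplasmic CT by a median of 1.43 cycles over the named assays in LSK cells, while the median difference was -0.61, -0.12 and -0.49 cycles at the 3 later stages in turn. For miR-221 the difference was 2.12 cycles in LSK cells and between -0.26 and 0.13 later, and for miR-222 it was 0.94 cycles in LSK cells and between -0.08 and -0.04 later. The part of this shift in the directions above was not tested. miR-221 and miR-222 were on opposite sides of the LSK median.

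**Figure D3:**
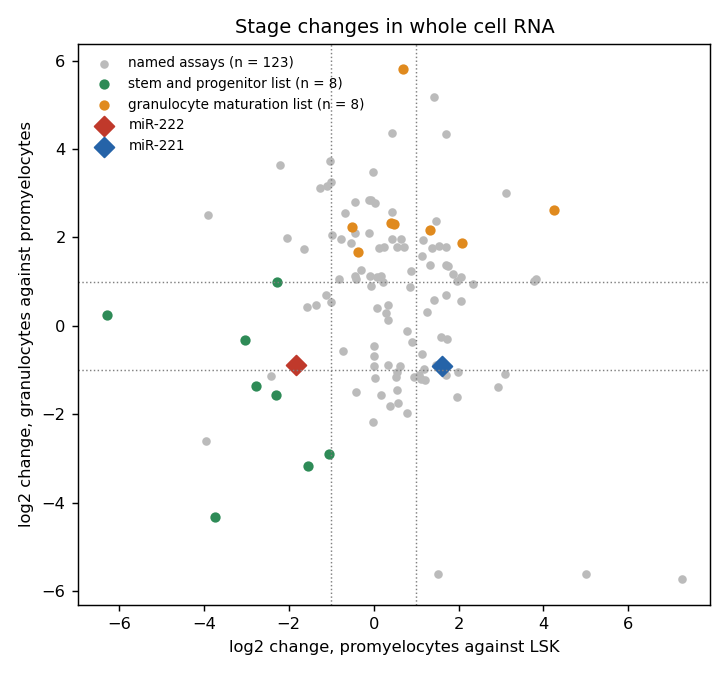
Scaled log2 change in whole cell RNA of 123 named assays, promyelocytes against LSK cells (horizontal) and granulocytes against promyelocytes (vertical); diamonds are miR-222 (red) and miR-221 (blue), green and orange points are the stem and progenitor list and the granulocyte maturation list (8 assays each), and dotted lines mark 2-fold. The diamonds lie at nearly the same height and 3.45 apart along the horizontal axis.

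Both miRNAs had a lower CT in cytoplasmic than in nuclear RNA at every stage. The nuclear:cytoplasmic ratio is 2 raised to the cytoplasmic minus the nuclear CT, divided by 3. The divisor follows the way the ratios were printed, and what it stands for is not given in the sources used here. The labels give the same RNA mass for both fractions and the study speaks of cell equivalents, so the ratio is not read here as a share of the miRNA in a cell. It was 0.0168 for miR-222 in LSK cells and 0.0377, 0.0343 and 0.0508 at the later stages in turn. For miR-221 it was 0.00860, 0.0213, 0.0219 and 0.0541. With the divisor of 3, none of the 8 ratios passed 0.1, a limit that 15.6%, 27.5%, 13.5% and 10.5% of the named assays with a nuclear CT under 30 passed in the 4 stages. Without the divisor, miR-222 was over 0.1 in promyelocytes, myelocytes and granulocytes (0.113, 0.103 and 0.152) and miR-221 in granulocytes (0.162). Median ratios of those assays were 0.0213, 0.0534, 0.0266 and 0.0568, so that miR-222 was below the median in LSK cells, promyelocytes and granulocytes and above it in myelocytes. That median covers assays chosen by their nuclear CT. Where the cytoplasmic CT of a named assay was under 30, the nuclear CT lay above the cytoplasmic CT by medians of 4.34, 2.88, 4.18 and 2.62 cycles. miR-222 was at 4.31, 3.14, 3.28 and 2.72, and so on the other side of this median in LSK cells. For both miRNAs the ratio was lowest in LSK cells and highest in granulocytes, and the median ratio had the same lowest and highest stages. The ratios of miR-221 rest on nuclear CT values above 30.

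**Figure D4:**
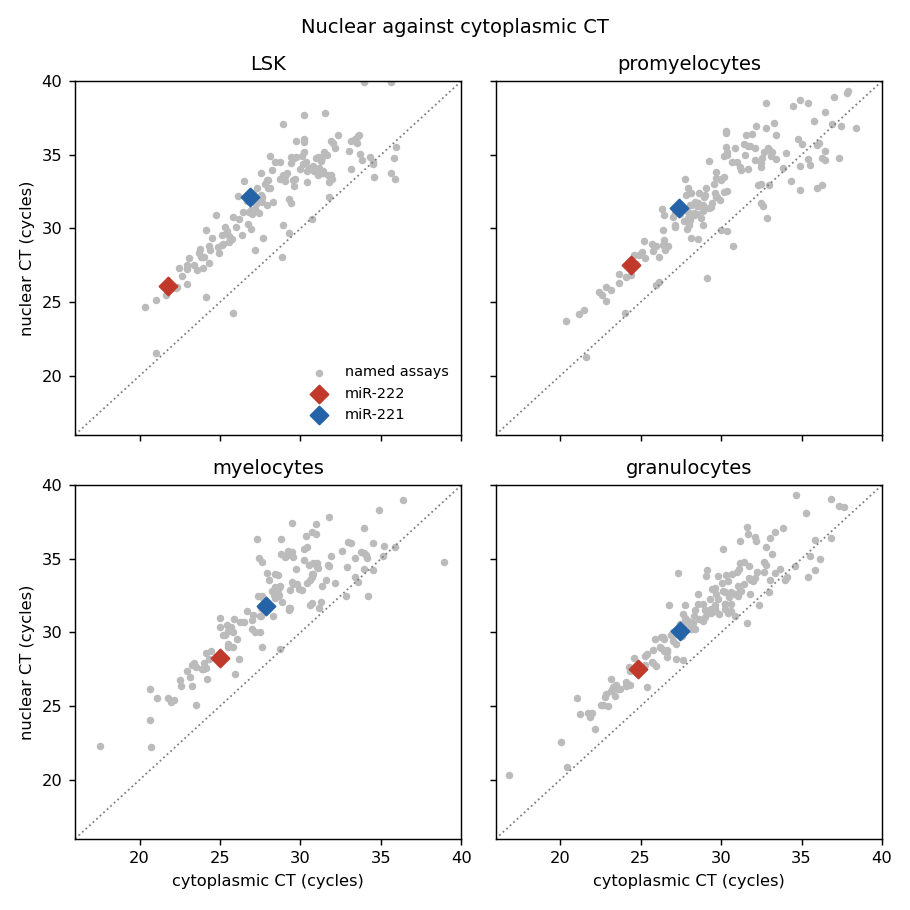
Nuclear CT against cytoplasmic CT (cycles) in each of the 4 stages for the named assays under 40 in both, with miR-222 (red) and miR-221 (blue); the dotted line is equal CT. Both diamonds lie above the line at every stage and within the band of the other assays.

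The assays whose course was most like that of miR-222 were sought over all 12 samples, as the root mean square difference between log2 levels centred within each fraction. Of 82 named assays under a CT of 35 in every sample, the 5 nearest were miR-320 at 0.54, miR-92a at 0.62, let-7c at 0.74, miR-378 at 0.77 and miR-126-3p at 0.78. miR-126-3p, which marks stem and progenitor cells, had the highest Pearson r of them, 0.98, but a wider swing, from a cytoplasmic CT of 23.1 in LSK cells to 28.4 in granulocytes. miR-221 came at rank 35, with a difference of 1.26 and r of -0.06. The 12 points come from only 4 stages and are not independent, so r is a description. The choice of measure decides the list: by r, 3 of the 5 remained, joined by miR-125b-5p and miR-155.

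The nearest assays to miR-221, looked for after its values were seen, were miR-17 at 0.34 and miR-19a at 0.36, both of the miR-17-92 cluster, a group transcribed in proliferating cells. They were followed by let-7i at 0.40, miR-130b at 0.42 and miR-106a at 0.44. Whole cell miR-17 had a CT of 22.2 in LSK cells and 20.9, 21.9 and 21.6 thereafter, the lowest in promyelocytes as for miR-221.

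**Figure D5:**
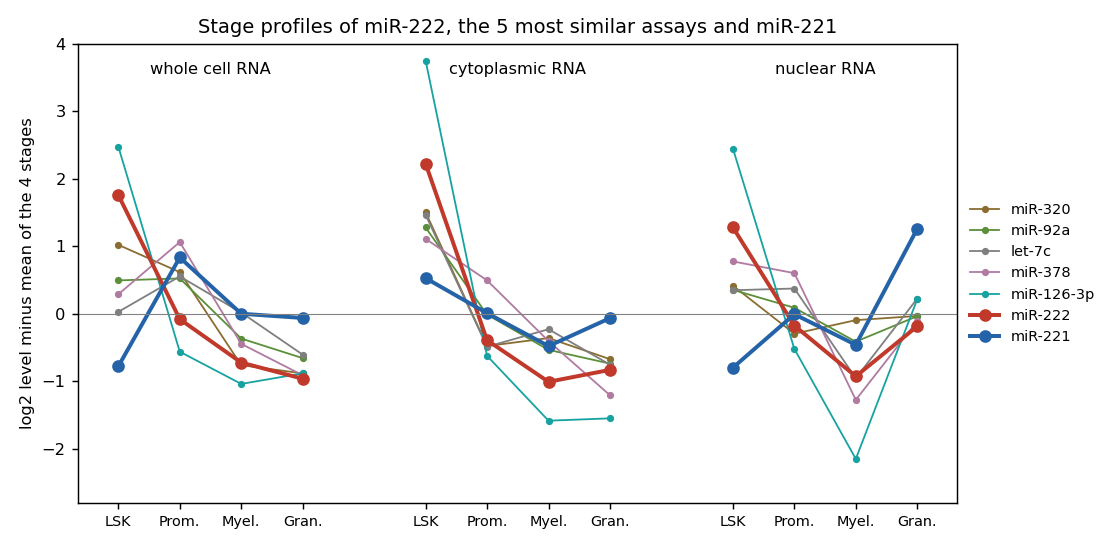
Log2 level minus the mean of the 4 stages in whole cell, cytoplasmic and nuclear RNA for miR-222 (thick red), miR-221 (thick blue) and the 5 assays nearest to miR-222 (thin lines), 1 sample a point. miR-222 starts high in LSK cells in each fraction, whereas miR-221 starts low in whole cell and nuclear RNA.

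Other miRNAs known to target Kit could be followed only in part. Of the 6 on the list, miR-494, miR-34a and miR-218 were named and the other 3 were not named here. Of the named ones only miR-494 was under a CT of 30 in a whole cell sample. Its whole cell CT was 31.1 in LSK cells and 25.9, 28.3 and 31.05 at the later stages in turn, a log2 change of 4.99 from LSK cells to promyelocytes and of -5.62 from promyelocytes to granulocytes. Its nuclear CT was 33.2, 29.9, 32.4 and 31.8, also lowest in promyelocytes. Its cytoplasmic CT was 30.4, 29.99, 28.4 and 29.6, lowest in myelocytes. miR-34a was between 30.8 and 33.1 in whole cell RNA. In cytoplasmic RNA it had a CT of 29.8 in LSK cells, was listed at 40 in promyelocytes and was at 32.8 and 32.7 thereafter, so that its lowest cytoplasmic CT was in LSK cells, as for miR-222. miR-218 was above 33 in LSK cells and listed at 40 in the later stages, in whole cell and in cytoplasmic RNA. In nuclear RNA miR-218 was listed at 40 in LSK cells and promyelocytes and had a CT of 34.4 in myelocytes and 35.9 in granulocytes, while miR-34a was listed at 40 before granulocytes and was at 34.8 there. Of these 3, only miR-218 had its lowest whole cell CT in LSK cells.

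The stem and progenitor list was chosen with earlier results of these data known, so its counts are a description, not an independent check. Its miRNAs that could be compared were lower in promyelocytes and in granulocytes than in LSK cells, as miR-222 was. Of the 12 on that list 9 were named, and all 8 that could be compared in whole cell RNA were past 2-fold lower in promyelocytes than in LSK cells, with a median log2 change of -2.54, where 17.3% of all 104 named assays were past 2-fold lower and their median was 0.43. In granulocytes against LSK cells the count was again 8 of 8, with a median of -4.05, beside 16.1% of 124 and a median of 1.31. Myelocytes were not counted for this list, and miR-146a, one of its members, had a log2 change of 0.66 there against LSK cells. miR-126-3p had log2 changes of -3.04 and -3.36, and miR-155, a miRNA of activated and progenitor cells, -1.54 and -4.72. miR-196b, which lies in the Hoxa cluster, had -3.73 and -8.06. The -1.84 of miR-222 in promyelocytes was nearer to 0 than the median of the list, as was its -2.72 in granulocytes.

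The granulocyte maturation list was also chosen with earlier results of these data known, so its counts are a description, not an independent check. The paper itself names miR-24, miR-26a, miR-139-5p and miR-195 among miRNAs that had not been tied to granulopoiesis before. The miRNAs of this list were higher in granulocytes. In whole cell RNA all 8 of that list were past 2-fold higher in granulocytes than in LSK cells, with a median log2 change of 3.14, beside 55.6% of all 124 named assays and a median of 1.31. In promyelocytes 3 of 8 were past 2-fold higher, near the 33.7% of all 104 named assays. In cytoplasmic RNA 6 of 8 were past 2-fold higher in granulocytes, where 33.9% of 124 named assays were, and 4 of 8 were past 2-fold lower in promyelocytes, beside 64.0% of 111. In whole cell RNA miR-223 had changes of 4.25 in promyelocytes and 6.87 in granulocytes, and miR-139-5p 0.70 and 6.50. miR-221, at 1.61 and 0.72, had a higher value in promyelocytes than in granulocytes, whereas each of the 8 had the higher value in granulocytes.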

How the data were processed

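The authors measured miRNA with TaqMan low density array cards (rodent cards A and B) on a 7900HT system. SDS and RQ Manager gave the CT values, which were deposited without normalization; the unit is the PCR cycle and undetermined wells are at 40. All 12 columns were used. Assays are numbered in the table; 248 were named where CT values equalled those the study prints beside miRNA names within 0.0005, and 22 where whole cell differences, less a constant and multiplied by 1.71, equalled the printed ones within 0.002, each uniquely. The printed differences are larger than log2 changes by that factor, which was not applied here. The members and lists were chosen with earlier results of these data known. Whole cell log2 changes are CT differences minus the mean change over 3 assays, those that end card B, which equals the constant behind the study's printed differences; cytoplasmic and nuclear changes are unscaled. Those 3 are among the nuclear control RNAs. These are unnamed assays under 40 in every sample, with a lower nuclear than cytoplasmic CT at each stage. The sign is that of the first named stage. Assays under a CT of 30 in 1 or both stages were compared. No test was made, each stage having 1 sample in each fraction, and depth does not apply to CT values. Named were the pair, the 5 assays most like miR-222 and members of the lists. The naming, unscaled CT differences and the comparison of nuclear with cytoplasmic CT were tried on simulated data. The scaling, the divisor of 3, the likeness and the neighbouring pairs were not. Python 3.11.15, numpy 2.4.6, pandas 2.3.3 and matplotlib 3.10.9 were used, and RefSeq sequences of GRCm38.p6. The table names no genome build. mRNA arrays were not analysed here.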

Additional observations from a re-analysis of the deposited data

Results flagged for a closer look

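For miR-221, the same stages gave opposite directions in different RNA fractions, each by at least 0.5 on the log2 scale; these differences were not tested, since every fraction has 1 sample per stage. In promyelocytes against LSK cells the log2 change was 1.61 in whole cell, -0.52 in cytoplasmic and 0.79 in nuclear RNA, so that whole cell exceeded cytoplasmic by 2.13 and cytoplasmic minus nuclear was -1.31. In myelocytes against LSK cells it was 0.78 in whole cell and -1.01 in cytoplasmic RNA, a difference of 1.79. In granulocytes against LSK cells it was 0.72 in whole cell, -0.59 in cytoplasmic and 2.06 in nuclear RNA, with differences of 1.31 and -2.65. In granulocytes against promyelocytes it was -0.90 in whole cell and 1.27 in nuclear RNA, a difference of -2.16. The nuclear values rest on CT values above 30, whole cell changes are scaled and the others are not, and the cytoplasmic change in promyelocytes turned to 1.33 and 0.65 once scaled. With the mean CT of the named assays and with those of card A alone, whole cell changes against LSK cells also turned. They were then -0.071 and -0.26 in myelocytes and -0.12 and -0.33 in granulocytes, the sign of the cytoplasmic changes. miR-222 gave no such opposite pair with fractions unscaled. With all fractions scaled to the last 3 assays of card B, it did in granulocytes against promyelocytes. Its change was then -0.88 in whole cell, -3.70 in cytoplasmic and 1.38 in nuclear RNA.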

How the results depend on the processing

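No replicate block was fitted: each stage and fraction has 1 sample without a replicate number, and comparisons paired by stage or by fraction were not tested. Whole cell miR-222 was lower and miR-221 higher in promyelocytes than in LSK cells, past 2-fold, under every scaling tried and at 1.9-fold per cycle. Scaling cancels in the difference between the pair. At 1.9-fold per cycle that difference was past 2-fold in promyelocytes and in granulocytes against LSK cells in all 3 fractions. In nuclear RNA it rests on miR-221 CT values above 30. The values that reversed or crossed 2-fold follow, as log2 changes; their cause was not tested. With the mean CT of the named assays, whole cell granulocytes against promyelocytes gave -1.38 for miR-222 and -1.40 for miR-221, with those of card A -1.69 and -1.70, and with the first of the 3 scaling assays left out -1.01 and -1.02. In myelocytes against promyelocytes the 2 means gave -1.16 and -1.45 for miR-222 and -1.35 and -1.64 for miR-221. Whole cell miR-221 against LSK cells turned to -0.071 and -0.26 in myelocytes and to -0.12 and -0.33 in granulocytes with those 2 means, and was 1.39 in granulocytes and 1.02 in myelocytes without scaling, 1.17 there without the first scaling assay. In granulocytes against myelocytes it was 0.38 without scaling, 0.0022 with the nuclear control RNAs and 0.042 without the third scaling assay, and miR-222 was 0.20 without scaling. Scaled to the last 3 assays of card B, cytoplasmic miR-222 gave -0.77 in promyelocytes against LSK cells and -3.70 in granulocytes against promyelocytes, -1.54 there with the mean; nuclear miR-222 gave 1.38 there, -1.09 with the mean, and -0.31 in granulocytes against LSK cells. Cytoplasmic miR-221 in promyelocytes turned to 1.33 and 0.65 under those scalings, chosen after seeing the data for miR-221. Its other changes were -0.83 and -0.89 in myelocytes (-0.93 at 1.9-fold per cycle), -2.01 in granulocytes with the last 3 assays, and -3.34 and -1.18 in granulocytes against promyelocytes. Nuclear miR-221 gave 1.51 in myelocytes with the last 3 assays; with the mean, granulocytes gave 0.80 against LSK cells and 0.18 against promyelocytes. Without the divisor of 3 the ratio of miR-222 was 0.113, 0.103 and 0.152 in promyelocytes, myelocytes and granulocytes; relative to the median ratio it was 0.790, 0.705, 1.29 and 0.894 from LSK cells on. Of the 5 assays most like miR-222, 3 were kept by Pearson r, 2 in whole cell samples alone, where miR-221 came at rank 65 of 148, and 1 with a CT limit of 30; scaling cancels in this measure.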
